A study of Mus musculus with 8 samples.

Results

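The probe sets described here are those of the kallikreins and of the Spink and Wfdc protease inhibitors in mouse prostate. They were every probe set whose annotation gave exactly 1 gene symbol beginning with *Klk*, *Spink* or *Wfdc* and a digit, which was 43 of 45037 probe sets and covered 38 genes. The Klk1 subfamily (*Klk1* and the *Klk1b* copies) had 14 probe sets for 10 genes, the other kallikreins 10 for 10 genes, Spink 7 for 7 genes and Wfdc 12 for 11 genes. A further 2 probe sets carried several kallikrein symbols and were kept apart, and 19 of the 56 protein-coding genes of these families in RefSeq had no probe set of their own.

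Kallikreins are secreted serine proteases that gland epithelium stores and releases as inactive precursors, and prostate-specific antigen of the human prostate is the best known of them. In rodents the tissue kallikrein gene *Klk1* has been copied many times into the *Klk1b* genes, whose sequences are so alike that probes for one can bind another. Spink proteins carry Kazal domains that block trypsin-like proteases, and Wfdc proteins carry the whey acidic protein fold, which in several members inhibits proteases or kills bacteria. In the male tract many genes of all these families are expressed in single glands or lobes.

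Whole prostates came from 4 mice that lacked *Olfm4* and 4 wild-type mice, and the RNA of each mouse was measured on its own Affymetrix array. All mice were 3 months old and shared a mixed background, 50% of it 129/SV and the other 50% from National Institutes of Health Black Swiss, and the knockout was carried in the germline and so in every tissue. *Olfm4* encodes olfactomedin 4, a secreted glycoprotein, and the comparison asks which transcripts differ in prostate that lacks it. The arrays fell on 2 days by the date in the sample titles, and either day held 2 arrays per genotype. Values are the log2 values that the authors made with RMA, which corrects background, normalizes arrays to each other and summarises each probe set. Genotypes were compared with limma in a model that also held array day, and a probe set was called at a Benjamini-Hochberg adjusted p under 0.05 over all 45037 probe sets. *Olfm4* itself had log2 values of 3.09, 3.00, 3.25 and 3.09 on the knockout arrays, against 10.32, 10.23, 10.74 and 10.65 on the wild-type arrays.

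Arrays are numbered within their genotype as in the labels. Array medians ran from 6.03 to 6.09. Knockout array 1 stood apart: it lay more than 1 log2 unit below every other array at 185 probe sets (0.411% of all) and above every other array at 313 (0.695%). Among the members the same array lay that far below all others at 5 probe sets (11.6%) and above at 4 (9.30%). Wild-type array 1 lay that far above the others at 1 member, *Wfdc21*, and no further array did so at any member. Some markers of neighbouring glands moved with these arrays. The mean of the 6 measured of 7 listed seminal vesicle genes ran from 9.04 to 13.81 on knockout arrays and from 7.88 to 14.15 on wild-type arrays, with the highest value of each genotype on its array 1. *Svs2*, the major seminal clotting protein, had log2 values of 14.08, 10.49, 9.83 and 8.47 in knockout and 13.98, 7.54, 9.28 and 8.73 in wild-type samples. *Defb42*, a defensin of the epididymis, was at 10.93 on knockout array 1 and 6.29 on wild-type array 1, and between 3.50 and 4.32 on the other arrays. The other measured epididymis genes did not share this form: *Lcn5* was high only on knockout array 1 (5.64, against 4.42 to 4.70 elsewhere), and *Lcn8* and *Adam7* did not stand out on array 1 of either genotype. The mean of the 4 measured of 6 epididymis genes, set largely by *Defb42*, ran from 4.45 to 6.55 in knockout and from 4.33 to 5.13 in wild-type samples. *Msmb*, a secretory protein of prostate lobes, was at 11.09 on knockout array 1 and between 14.09 and 14.35 on the others. Of its list, *Apof* (10.82, against 11.84 to 12.78) and *Fkbp5* (10.55, against 11.00 to 12.20) were also lowest there, by less. *Tgm4* (14.21, against 14.14 to 14.30) and *Pbsn* (13.76, against 13.64 to 14.09) were not. The mean of the list (5 measured of 7) ran from 12.09 to 13.33 in knockout and from 13.06 to 13.39 in wild-type samples. The 4 measured of 5 listed luminal epithelial genes kept a mean between 13.77 and 13.82 in knockout and between 13.81 and 13.83 in wild-type samples. The part of these glands or lobes in the results below was not tested, and in whole tissue a smaller share of a cell type cannot be told apart from less RNA per cell. Results that rest on knockout array 1 are therefore given with and without it.

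None of the 43 member probe sets was called, against 0.111% of all probe sets. With unadjusted p under 0.05, 3 members had a higher mean in knockout prostate (6.98%, against 5.46% of all probe sets) and 0 had a lower one (against 7.34%). The genotypes did not overlap at 0 members, against 3.69% of all probe sets with knockout higher and 5.03% with knockout lower. Without knockout array 1 the called members were again 0 (0.0955% of all probe sets), with 4 higher at an unadjusted p under 0.05 (9.30%, against 6.36%) and 0 lower (against 6.88%). The median log2 fold change of the members was 0.04, or 0.01 without knockout array 1, against -0.01 over all probe sets in both fits. The mean in knockout prostate was higher for 25 members and lower for 18, and over all probe sets higher for 20795 and lower for 24242.

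Precision differed between the families. The median standard error of a log2 fold change was 0.25 over the members and 0.10 over all probe sets, and without knockout array 1 it was 0.15 over the members. The 95% interval of the fold change stayed within 1 log2 unit of 0 for all 10 other kallikreins, but for 8 of 14 Klk1 subfamily, 4 of 7 Spink and 4 of 12 Wfdc probe sets. For the other 17 members the interval reached past a 2-fold change. Of the members, 15 had a mean log2 value under 5 and were treated as near background. Among these were 6 of the 10 other kallikreins, whose narrow intervals thus lay at values near background.

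**Figure D1:**
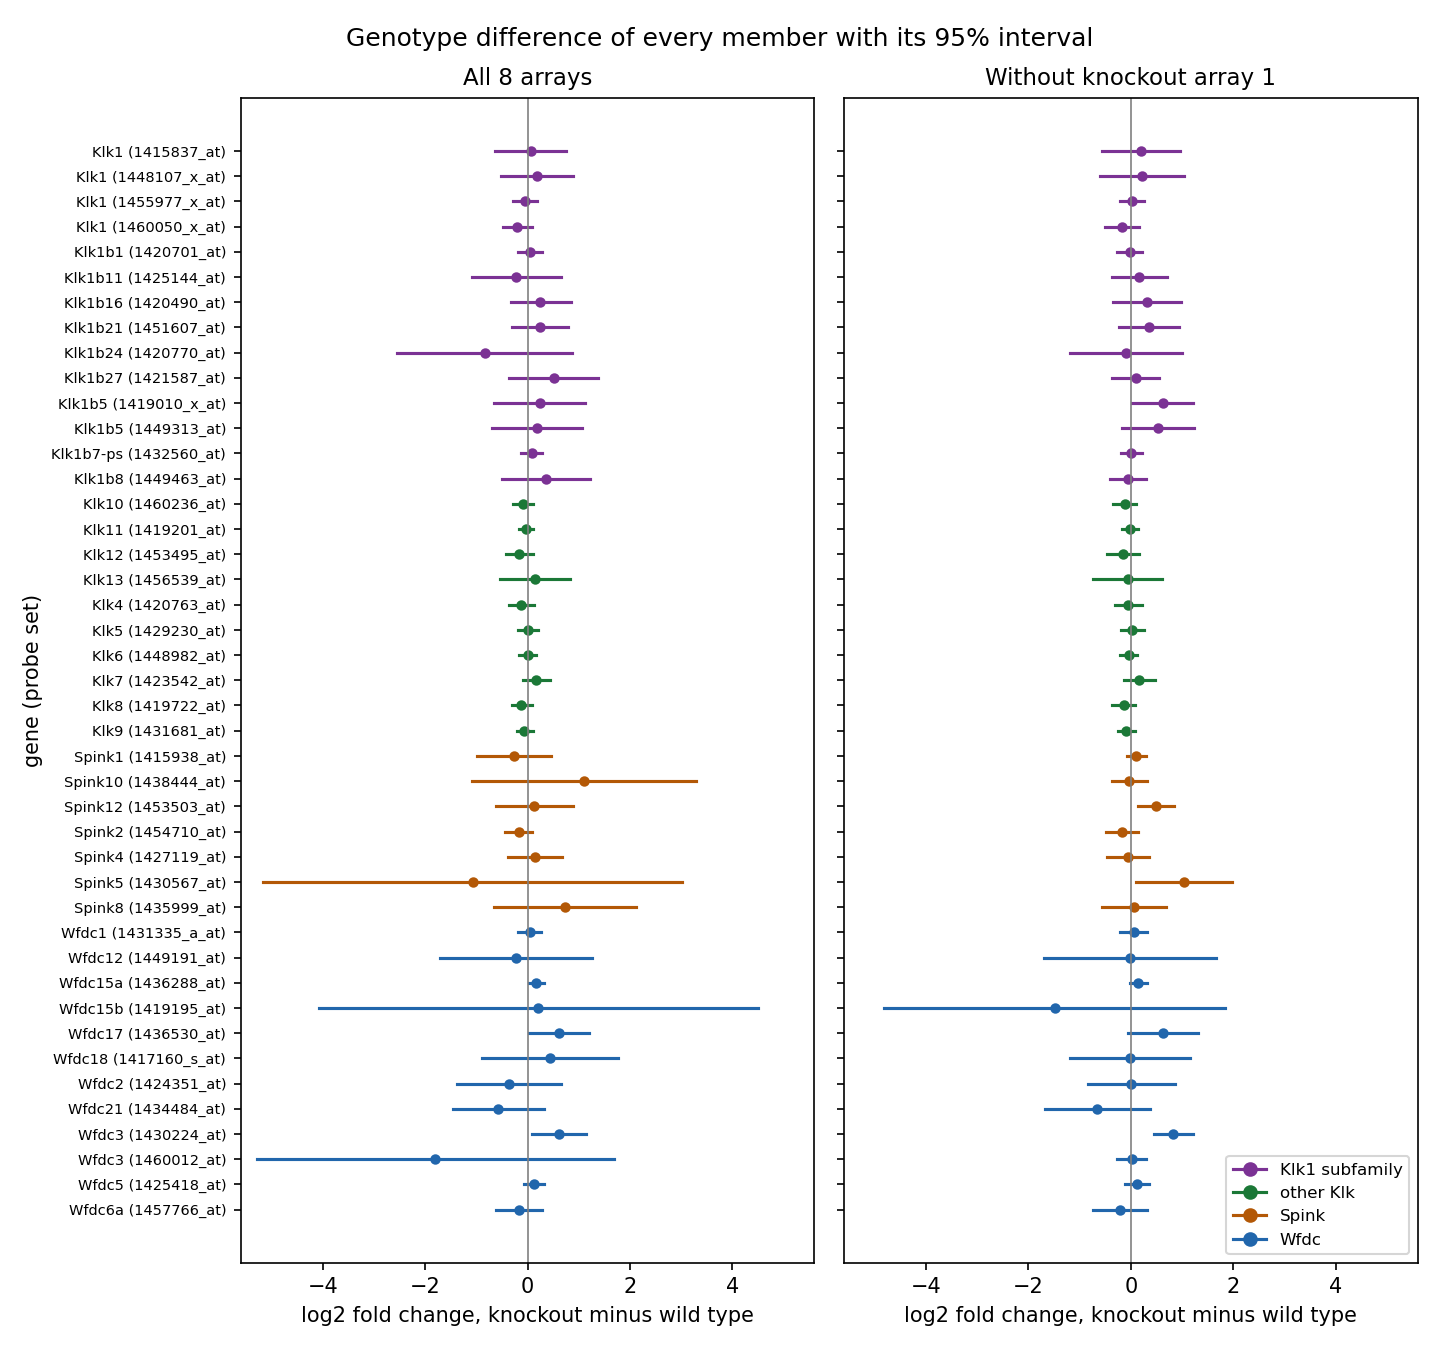
Log2 fold change, knockout over wild type, of each of the 43 member probe sets with its 95% interval, over all 8 arrays and without knockout array 1. The widest intervals, those of *Spink5*, *Wfdc3* and *Wfdc15b*, span several log2 units with all arrays, and those of *Spink5* and *Wfdc3* narrow once that array is left out.

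The Klk1 subfamily holds the kinin-releasing tissue kallikrein and its rodent copies. The start regions of its genes are shown because copies with similar upstream sequence lay on opposite sides of the other arrays on knockout array 1. Each line gives the last 150 bases before the RefSeq start (GRCm38.p6), with TTTAAA in capitals. *Klk1b24* and *Klk1b11* were low on that array and *Klk1b27* and *Klk1b8* were high.
Klk1b24 (chr7:44188086-44188235, plus strand): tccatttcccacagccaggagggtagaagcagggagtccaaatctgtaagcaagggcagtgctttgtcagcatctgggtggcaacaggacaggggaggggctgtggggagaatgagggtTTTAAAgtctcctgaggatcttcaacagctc
Klk1b11 (chr7:43995727-43995876, plus strand): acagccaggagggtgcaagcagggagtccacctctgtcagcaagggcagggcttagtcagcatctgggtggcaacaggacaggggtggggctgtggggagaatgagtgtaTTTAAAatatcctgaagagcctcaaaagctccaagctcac
Klk1b27 (chr7:44052140-44052289, plus strand): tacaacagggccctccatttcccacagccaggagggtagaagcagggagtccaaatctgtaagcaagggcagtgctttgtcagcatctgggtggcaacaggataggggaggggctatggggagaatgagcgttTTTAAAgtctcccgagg
Klk1b8 (chr7:43950516-43950665, plus strand): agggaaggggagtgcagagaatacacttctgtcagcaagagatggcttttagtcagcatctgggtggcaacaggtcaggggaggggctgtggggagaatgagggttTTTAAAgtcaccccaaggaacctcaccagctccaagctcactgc

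TTTAAA was searched on both strands, where it reads the same, and was picked after the sequences had been seen. It lay in the 250 bases before the start of 7 of 9 Klk1 subfamily promoters (77.8%), against 12.1% of 32851 RefSeq mouse promoters of that length. It was in none of the 12 promoters of the 10 other kallikreins, the 3 of *Spink2* or the 10 of 8 Wfdc genes. No other Spink gene had a promoter to search. TATAAA or its complement TTTATA, the usual TATA box, was in 1 of the 34 member promoters (2.94%, *Wfdc18*) and in 12.4% of all. The hexamer AGAACA or its complement TGTTCT, a hexamer of the androgen response element, was in 6 member promoters (17.6%) and in 16.1% of all. Aligned over 250 bases, the Klk1 subfamily promoters were identical at 35.5% to 88.8% of positions (median 71.3%, 36 pairs). Among the copies shown, those on opposite sides on knockout array 1 matched at 82.2% (*Klk1b24* and *Klk1b27*) and 75.4% (*Klk1b11* and *Klk1b8*). The remaining opposite pairs matched at 70.0% (*Klk1b11* and *Klk1b27*) and 67.9% (*Klk1b24* and *Klk1b8*). Copies on the same side matched at 74.2% (*Klk1b24* and *Klk1b11*) and 63.0% (*Klk1b27* and *Klk1b8*). These genes descend from common copies, so their matches are not independent, and a match describes letters rather than a bound site. Matches to different motifs were counted apart even where they might overlap.

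*Klk1b24*, one of the glandular kallikrein copies, had log2 values of 4.85, 7.09, 8.73 and 8.10 in knockout prostate, against 8.32, 7.94, 8.62 and 7.24 in wild-type prostate. The groups overlapped, and knockout array 1 lay more than 1 log2 unit below all others. The log2 fold change was -0.84 (95% interval -2.54 to 0.86, adjusted p = 0.678 from limma), and -0.09 (-1.19 to 1.00) without that array. *Klk1b11* was at 5.15, 6.41, 6.42 and 7.17 in knockout and 6.42, 6.62, 6.74 and 6.23 in wild-type samples. It was likewise lowest on knockout array 1, and its fold change of -0.22 (-1.09 to 0.65, adjusted p = 0.848 from limma) became 0.17 (-0.37 to 0.71) without it. *Klk1b5* had a pair of probe sets that were both lowest on the same array, at 4.48 and 4.30, with fold changes of 0.24 and 0.19. Without it the first of them, an x_at probe set, stood at 0.62 (0.03 to 1.21, unadjusted p = 0.0419 and adjusted p = 0.360 from limma). The second, which lacks that suffix, stood at 0.53 (-0.18 to 1.24, unadjusted p = 0.121 from limma). Salivary gland is the tissue in which *Klk1b* copies are best known, and 4 of 5 listed genes of it were measured. Their mean ran from 5.48 to 7.25 in knockout and from 6.65 to 6.97 in wild-type samples, with the lowest on knockout array 1. That low mean was set by *Smgc*, at 4.47 there and between 8.55 and 10.94 elsewhere. *Amy1* (9.25, against 9.17 to 9.62), *Dcpp1* (4.52, against 4.30 to 4.78) and *Bpifa2* (3.68, against 3.38 to 3.76) lay within the range of the other arrays. The part of salivary gland genes in the values above was not tested.

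The copies *Klk1b27* and *Klk1b8* of the same gene run were high on that array. *Klk1b27* had log2 values of 6.67, 4.80, 5.33 and 5.03 in knockout prostate, against 5.14, 5.14, 4.99 and 4.55 in wild-type prostate. *Klk1b8* had 6.11, 4.52, 4.20 and 4.42 in knockout, against 4.73, 4.51, 4.33 and 4.22 in wild-type prostate. In both, knockout array 1 was more than 1 log2 unit above all 7 others, which overlapped. Their log2 fold changes were 0.51 (-0.37 to 1.38) and 0.37, and 0.10 (-0.36 to 0.56) and -0.06 without that array. *Klk1b21* spread less, between 5.45 and 6.14 in knockout and 4.98 and 5.96 in wild-type samples, with a fold change of 0.24 (standard error 0.24).

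*Klk1* was read by 4 probe sets, and 3 of them carry the suffix x_at, which marks probes that can bind other transcripts. The probe set with the highest mean was itself an x_at one. It had log2 values of 8.65, 8.85, 8.74 and 8.55 in knockout and 8.69, 9.07, 8.74 and 9.09 in wild-type prostate. Its values overlapped, and its log2 fold change was -0.20 (-0.48 to 0.09, adjusted p = 0.547 from limma). The other *Klk1* probe sets had fold changes of 0.06, 0.18 and -0.04, at mean log2 values of 4.83, 4.90 and 5.32 over all arrays. The first of them, the only *Klk1* probe set without the suffix x_at, and the second were thus near background. Cross-hybridisation within the subfamily could not be checked from probe sequences, and the probe set shared by *Klk1b9* and *Klk1b22*, with values of 7.64, 7.78, 8.88 and 8.34 in knockout and 8.43, 8.34, 8.55 and 7.84 in wild-type prostate, again overlapped (fold change -0.13). The remaining members, *Klk1b1*, *Klk1b16* and *Klk1b7-ps*, were near background, with fold changes of 0.04, 0.25 and 0.08. Over the subfamily 10 of 14 probe sets had a higher mean in knockout prostate and the median fold change was 0.13, also without knockout array 1.

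**Figure D2:**
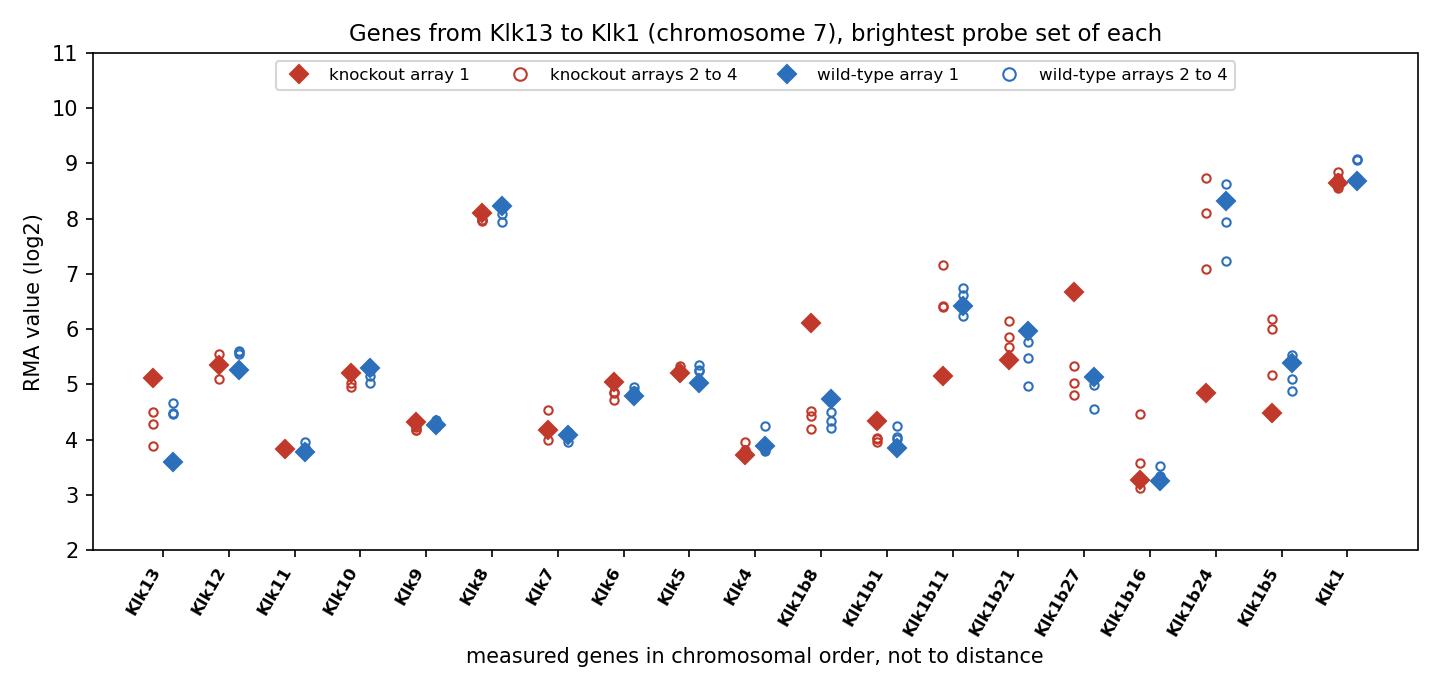
Log2 values of the kallikrein genes in their order along the gene run from *Klk13* to *Klk1* (probe set with the highest mean of each), 1 point for each array, red for knockout and blue for wild type, with array 1 of each genotype as a filled diamond. Knockout array 1 lies low at *Klk1b11*, *Klk1b24* and *Klk1b5* and stands out above at *Klk1b8* and *Klk1b27*, while most of the other kallikreins lie close together.

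The other kallikreins include proteases of skin shedding, enamel and brain, and most were dim here. *Klk8*, known as neuropsin from its role in the hippocampus, was the only 1 of the 10 with a mean log2 value over 6. It had 8.10, 7.97, 7.95 and 7.97 in knockout prostate, against 8.23, 8.20, 8.09 and 7.94 in wild-type prostate, and the groups overlapped. Its log2 fold change was -0.12 (-0.31 to 0.08, adjusted p = 0.607 from limma), so a change as large as 1 log2 unit lay well outside its interval. *Klk5* and *Klk7*, which cut the junctions between cells of the outer skin layer, had fold changes of 0.01 and 0.17. *Klk4*, the protease of maturing enamel, had -0.12, and *Klk10* and *Klk12* had -0.09 and -0.16. *Klk13* was highest on knockout array 1, at 5.12, with 3.88, 4.50 and 4.29 on the other knockout arrays and 3.60, 4.48, 4.66 and 4.46 on wild-type arrays. Its fold change was 0.15, or -0.06 without knockout array 1. *Klk6*, *Klk9* and *Klk11* had fold changes of 0.00, -0.06 and -0.02. In this group 6 of 10 were near background, and the median fold change was -0.04.

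Among the Spink genes, *Spink1* encodes the trypsin inhibitor of pancreas and male accessory glands. Its log2 values were 12.88, 14.42, 14.27 and 14.15 in knockout prostate, against 14.19, 14.21, 14.18 and 14.17 in wild-type prostate. The wild-type arrays spanned only 0.04, and knockout array 1 was more than 1 unit below all others. Other genes at such high values also varied little, as did *Tgm4* (14.14 to 14.30) and *Krt18* (14.14 to 14.25). Whether the arrays resolve differences at such values was not tested. The log2 fold change was -0.26 (-0.98 to 0.45, adjusted p = 0.767 from limma), and 0.10 (-0.08 to 0.29) without that array.

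*Spink5* encodes the many-domain inhibitor that in skin restrains the epidermal kallikreins. It was at 2.82, 10.62, 11.81 and 12.28 in knockout prostate and at 10.79, 10.08, 10.91 and 10.00 in wild-type prostate. Knockout array 1 was near background, while knockout arrays 3 and 4 lay above every wild-type array and knockout array 2 among them. The log2 fold change was -1.07 (95% interval -5.16 to 3.02, standard error 1.75, adjusted p = 0.843 from limma). Without knockout array 1 it turned to 1.04 (0.10 to 1.97, unadjusted p = 0.0347 and adjusted p = 0.341 from limma). *Spink12*, another Kazal-type gene of the same run of genes, took the same form, with 4.78, 6.06, 6.39 and 6.61 in knockout and 5.98, 5.61, 6.01 and 5.73 in wild-type prostate. Its fold change was 0.13, and 0.49 (0.14 to 0.84, unadjusted p = 0.0136 and adjusted p = 0.273 from limma) without that array, when the lowest knockout value of 6.06 stood just above the highest wild-type value of 6.01. Over the 7 Spink genes the mean in knockout prostate was higher for 4 and lower for 3, and the median fold change was 0.13, or 0.06 without knockout array 1.

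*Spink8* and *Spink10*, also Kazal-type genes, were high on knockout array 1 instead. *Spink8* had log2 values of 13.01, 10.73, 9.75 and 10.30 in knockout and 10.60, 9.87, 10.29 and 10.10 in wild-type prostate. *Spink10* had 8.43, 3.95, 3.98 and 3.58 in knockout and 4.00, 3.70, 4.04 and 3.76 in wild-type prostate, so that 7 of 8 arrays were under 5. The fold changes were 0.73 (-0.65 to 2.11) and 1.11 (-1.08 to 3.30), and 0.06 (-0.57 to 0.69) and -0.03 (-0.36 to 0.31) without knockout array 1. *Spink2*, an inhibitor of sperm proteases in testis, and *Spink4*, known from gut goblet cells, had fold changes of -0.17 and 0.15. *Spink4* was highest on knockout array 1, at 6.82, against 5.65 to 6.19 on the other knockout arrays and 5.83 to 6.24 on wild-type arrays, and its fold change was -0.06 without that array.

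**Figure D3:**
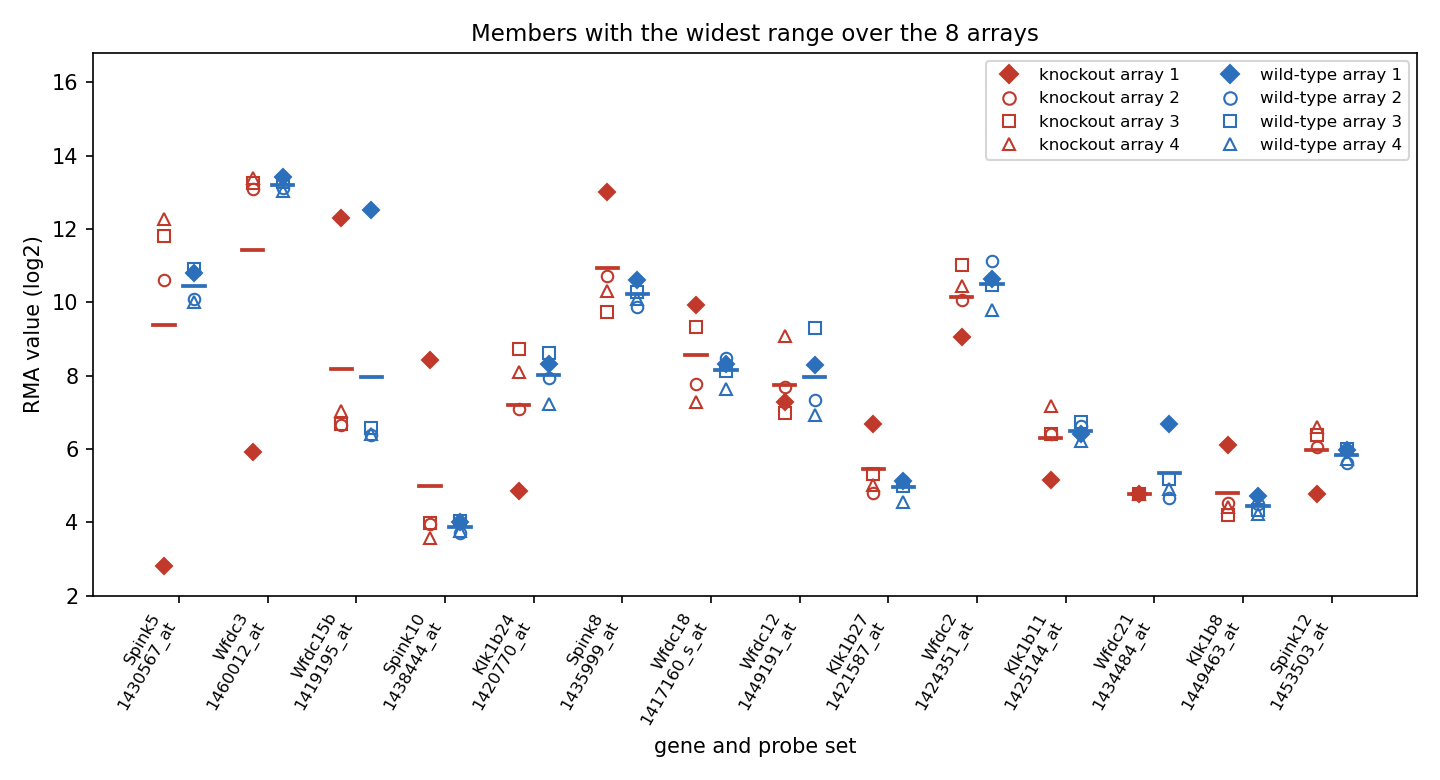
Log2 values on each array of the members with the widest spread, knockout (red) to the left of wild type (blue), with array 1 of each genotype as a filled diamond and the group mean as a bar. For *Spink5*, *Spink8* and *Spink10* knockout array 1 lies apart from the other 7 arrays, and for *Wfdc15b* array 1 of both genotypes lies above the rest.

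Most Wfdc genes lie in 1 run on chromosome 2 among the seminal vesicle genes, and genes near opposite ends of it differed on knockout array 1. The start regions of *Wfdc15b*, beside *Svs2*, and of *Wfdc3*, at the far end, are shown because the first was high and the second low on that array. Each is again the 150 bases before the RefSeq start (GRCm38.p6), with the androgen half-site TGTTCT in capitals.
Wfdc15b (chr2:164221664-164221813, minus strand): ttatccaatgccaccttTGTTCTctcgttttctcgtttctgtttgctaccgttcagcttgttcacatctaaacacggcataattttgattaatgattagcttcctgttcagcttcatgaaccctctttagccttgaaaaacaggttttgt
Wfdc3 (chr2:164743268-164743417, minus strand): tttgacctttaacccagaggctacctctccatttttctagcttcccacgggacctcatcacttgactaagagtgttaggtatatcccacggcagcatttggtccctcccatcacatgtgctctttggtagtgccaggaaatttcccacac
The half-site lay 133 bases before the start of *Wfdc15b*, and neither it nor TTTAAA or TATAAA was in the *Wfdc3* window.

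*Wfdc15b* encodes an antimicrobial single-domain protein. It had log2 values of 12.31, 6.65, 6.68 and 7.04 in knockout prostate, against 12.51, 6.37, 6.56 and 6.40 in wild-type prostate. Array 1 of both genotypes was thus over 5 log2 units above the others. Over all probe sets, 125 lay more than 1 unit above the other 6 arrays on both of these, and *Wfdc15b* was the 1 member among them. Those arrays also held the highest seminal vesicle values, and their part in this result was not tested. The fold change was 0.21 (-4.08 to 4.50, adjusted p = 0.976 from limma), with -2.60 on array day 1, which held wild-type array 1, and 3.01 on array day 2, which held knockout array 1. Without knockout array 1 it was -1.48. *Spinkl*, a Kazal-type gene outside the naming rule, had the same form, with 11.61, 6.27, 6.19 and 5.52 in knockout and 12.84, 4.78, 5.88 and 4.91 in wild-type prostate.

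*Wfdc3*, a gene with repeated whey acidic protein domains, had a pair of probe sets. The first was at 5.91, 13.09, 13.26 and 13.40 in knockout and 13.41, 13.11, 13.29 and 13.03 in wild-type prostate. All arrays but knockout array 1 lay within 0.38 of each other. Its log2 fold change was -1.80 (-5.28 to 1.68, adjusted p = 0.663 from limma), and 0.02 (-0.26 to 0.30) without that array. The second was at 4.41, 5.24, 5.13 and 5.66 in knockout and 4.71, 4.59, 4.37 and 4.32 in wild-type prostate, so that the 3 knockout arrays other than array 1 lay above every wild-type array. Its fold change was 0.61 (0.09 to 1.14, unadjusted p = 0.0283 and adjusted p = 0.337 from limma), with 0.89 and 0.34 on array days 1 and 2. Without knockout array 1 it was 0.83 (0.45 to 1.22, adjusted p = 0.180 from limma), the smallest adjusted p of any member in that fit, at values close to background and with no such difference in the first probe set.

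The other 2 members with an unadjusted p under 0.05 were *Wfdc17* and *Wfdc15a*. *Wfdc17*, a modulator of macrophage activation, was at 8.23, 8.23, 7.84 and 8.93 in knockout and 8.01, 7.87, 7.55 and 7.34 in wild-type prostate. Only knockout array 3 fell among the wild-type arrays, and the log2 fold change was 0.61 (0.03 to 1.20, unadjusted p = 0.0418 and adjusted p = 0.369 from limma), with 0.71 and 0.52 on array days 1 and 2. The mean of the 7 listed macrophage and leukocyte genes overlapped, from 7.62 to 8.09 in knockout and from 7.67 to 8.21 in wild-type samples. Of these genes 4 were higher and 3 lower in knockout prostate. *Cd3e*, a T cell gene, was lower by -0.66 (-1.12 to -0.19, unadjusted p = 0.0119 and adjusted p = 0.281 from limma), with overlapping groups. *Wfdc15a* was at 5.87, 5.85, 5.66 and 5.75 in knockout and 5.57, 5.59, 5.69 and 5.61 in wild-type prostate. It overlapped at knockout array 3 alone, and the fold change was 0.17 (0.02 to 0.32, unadjusted p = 0.0284 and adjusted p = 0.337 from limma). Both kept their direction without knockout array 1, at 0.63 (unadjusted p = 0.0659) and 0.15 (unadjusted p = 0.0679 from limma).

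*Wfdc2*, known as the epididymal protein HE4 and expressed in many secretory epithelia, had log2 values of 9.06, 10.07, 11.02 and 10.44 in knockout and 10.64, 11.14, 10.47 and 9.79 in wild-type prostate. The groups overlapped, and the fold change of -0.36 (-1.38 to 0.66) became 0.01 without knockout array 1. *Wfdc18*, first described in mammary gland, ranged from 7.29 to 9.94 in knockout and from 7.63 to 8.49 in wild-type prostate, with the highest value on knockout array 1 and a fold change of 0.44 (standard error 0.57), or -0.02 without that array. *Wfdc12*, an antimicrobial protein, was at 7.27, 7.68, 6.99 and 9.09 in knockout and 8.30, 7.35, 9.31 and 6.94 in wild-type prostate. It spread by over 2 log2 units within each genotype, with the highest values on knockout array 4 and wild-type array 3. *Wfdc21* was at 6.68 on wild-type array 1 and between 4.77 and 4.81 in knockout and 4.67 and 5.17 on the other wild-type arrays, with a fold change of -0.57 (standard error 0.38), or -0.12 without wild-type array 1. *Wfdc1*, a growth-restraining protein of prostate stroma, was even across arrays, between 8.68 and 8.97 in knockout and 8.56 and 8.85 in wild-type prostate (fold change 0.04). *Wfdc5* and *Wfdc6a* had fold changes of 0.13 and -0.17. Over the family 7 of 12 probe sets had a higher mean in knockout prostate, and the median fold change was 0.09, or 0.02 without knockout array 1.

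**Figure D4:**
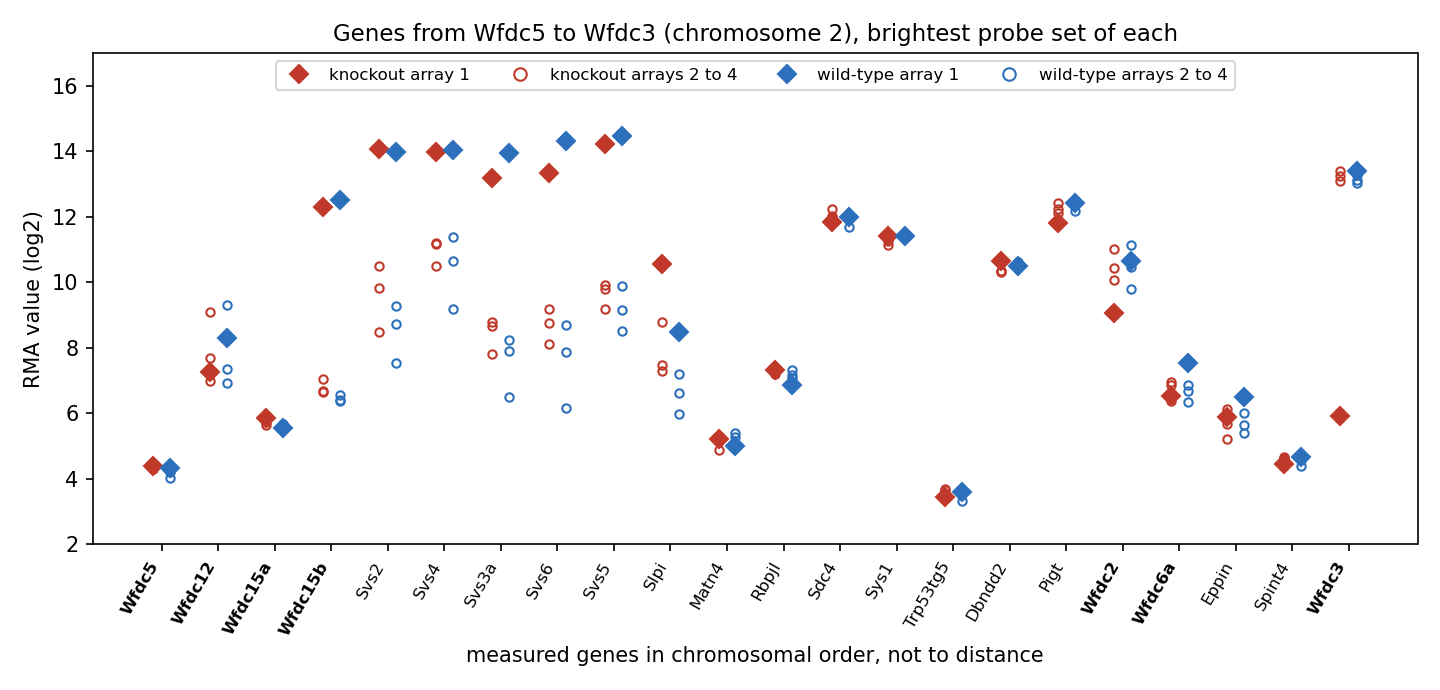
Log2 values of the measured genes in their order along the run from *Wfdc5* to *Wfdc3*, 1 point for each array, red for knockout and blue for wild type, with array 1 of each genotype as a filled diamond. Both of those arrays stand above the rest from *Wfdc15b* through the *Svs* genes, and knockout array 1 alone stands far below at *Wfdc3*.

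Genes that act with these proteases and inhibitors were listed from their known roles, and 0 of them were called. Of the 8 measured genes of the kinin system, which *Klk1* feeds, the mean in knockout prostate was higher for 3 and lower for 5, with 0 higher and 1 lower at an unadjusted p under 0.05 (median fold change -0.02). Of the 3 measured protease-activated receptors, which trypsin-like proteases switch on, it was higher for 1 and lower for 2. At that p there were 0 and 1, and the median was -0.16. The lower ones, *F2rl2* (3.34 to 3.88) and *F2rl3* (3.30 to 3.66), were near background. *F2r*, between 10.38 and 11.24, had a fold change of 0.17 (-0.21 to 0.55), and the listed *F2rl1* was not measured. Among 9 other serine proteases of epithelium, the mean in knockout prostate was higher for 5 and lower for 4. Of the higher ones, 1 reached that p (median 0.07). This was *Plat*, the tissue plasminogen activator, at 7.10, 6.79, 6.35 and 6.33 in knockout and 5.74, 6.18, 5.97 and 5.87 in wild-type prostate. Its groups did not overlap, and the estimated log2 fold change was 0.70 (95% interval 0.45 to 0.96, adjusted p = 0.102 from limma).

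Among 13 measured other serine protease inhibitors, the mean was higher in knockout prostate for 9 and lower for 4, with 3 and 1 at an unadjusted p under 0.05, where 5.46% of all probe sets were higher and 7.34% lower. The median fold change was 0.15, or 0.04 without knockout array 1. *Serpinb1a*, an inhibitor of neutrophil proteases, was at 11.65, 11.46, 12.02 and 12.18 in knockout and 12.17, 12.56, 12.42 and 12.65 in wild-type prostate. It overlapped by 1 knockout array, with a fold change of -0.62 (adjusted p = 0.246 from limma). *Serpinb5*, known as maspin, had a fold change of 0.43 (adjusted p = 0.267 from limma). *Slpi*, the secreted whey acidic protein inhibitor that lies in the *Wfdc* run, was at 10.56, 7.29, 8.78 and 7.48 in knockout and 8.50, 7.20, 6.61 and 5.98 in wild-type prostate. It was highest on array 1 in both genotypes, and its fold change was 1.45 (-0.48 to 3.38, adjusted p = 0.514 from limma), or 0.69 without knockout array 1. Of 5 measured genes of androgen regulation, it was higher for 2 and lower for 3, with 0 at that p (median 0.00). The median over all probe sets was -0.01.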

How the data were processed

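Whole-prostate RNA of 4 knockout and 4 wild-type mice was hybridised to 1 array each. The deposited log2 values were made by the authors with RMA (version not given in the sources used here) and were used as given. No detection calls were used, and precision is limited by how many arrays there are. Sample labels name 4 mice per genotype and Trizol, whereas the methods name another number of mice and another kit. Control probe sets (64) were left out. Knockout was compared with wild type in limma 3.58.1 (R 4.3.3; lmFit, eBayes, 2-sided) in a model of genotype and array day, with p adjusted over 45037 probe sets by the Benjamini-Hochberg method. The methods name ANOVA in Partek with no covariate, which was run as an alternative. The fit was tested on simulated data.

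The members, lists and tests were chosen with earlier results of these data known. In each family the 4 smallest p, the 4 genes with the highest mean and the 3 widest ranges were named, and *Slpi* and all other members given with values per array were chosen after their values were seen. For a related gene the probe set of highest mean was used. All 38 genes matched RefSeq by gene ID, and 28 had a promoter in the RefSeq table (GRCm38.p6), aligned pairwise with Biopython 1.88. That table also gave the order of genes.

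Alternatives were no day term, blocks by replicate number, array weights, trend with robust variance, other normalizations, filters on the mean at 5 and 7, each day alone, gene-level values and leaving out arrays.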

Additional observations from a re-analysis of the deposited data

Results flagged for a closer look

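In each genotype the 4 arrays of every member were examined for a highest or lowest value far from the others by Dixon's test at the 95% level. Of 86 groups tested, 7 met it, and chance gives about 1 in 20. Knockout array 1 accounted for 5 of them: *Wfdc3* at 5.91, *Wfdc15b* at 12.31, *Spink10* at 8.43, *Klk1b8* at 6.11 and *Klk8* at 8.10, where the whole knockout range of *Klk8* was only 0.14. The others were *Wfdc15b* at 12.51 on wild-type array 1 and *Klk5* at 5.33 on knockout array 3, where the whole knockout range was 0.13. *Spink5*, at 2.82 on knockout array 1, was not among them, because its other knockout arrays were spread too.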

How the results depend on the processing

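No member was called under any alternative run, and the smallest adjusted p of a member ran from 0.180 without knockout array 1 to 0.828 on array day 1 alone. The 3 members with an unadjusted p under 0.05 became 1 with a replicate block in place of array day, 1 by ANOVA without array day, 1 with a filter at a mean of 7, and 6 without array 1 of both genotypes. Of all probe sets, 12.8% reached that p in the main fit, and 12.4%, 12.5%, 20.8% and 13.3% in these alternatives in turn. The filter at 7 kept 13 of the 43 members. Over the fits that each lacked 1 array, the members at that p ranged from 0 (without knockout array 4) to 5 (without knockout array 3). The shares of all probe sets in those fits were 9.27% and 12.2%. Some of the members at that p were lower in knockout prostate: 2 of the 5 without knockout array 3, 1 of 2 without wild-type array 4 and 2 of 3 on array day 2 alone. Deviations of same-numbered arrays correlated at 0.34, 0.17, 0.04 and -0.01, and not every one passed 0.1, so the numbers were not taken to pair the arrays. The replicate block beside array day gave 2 such members. Among the genes refitted under each alternative, log2 fold changes that changed sign when 1 array was left out ranged from -0.51 to 0.17 for *Klk1b11*, -0.06 to 0.62 for *Klk1b5*, -0.06 to 0.58 for *Klk1b8*, -0.06 to 0.05 for *Klk5* and -0.07 to 0.44 for *Klk13*. The ranges were -0.51 to 0.10 for *Spink1*, -2.08 to 1.04 for *Spink5*, -0.03 to 1.77 for *Spink10* and -0.03 to 0.49 for *Spink12*. Those of the Wfdc genes were -0.04 to 0.08 for *Wfdc1*, -0.71 to 0.01 for *Wfdc2*, -2.86 to 0.02 for *Wfdc3* (first probe set), -0.77 to 0.30 for *Wfdc12*, -1.48 to 1.99 for *Wfdc15b* and -0.02 to 0.86 for *Wfdc18*. Of the members not refitted under each alternative, *Spink4* (-0.06), *Klk1b1* (-0.02), *Klk6* (-0.04) and a *Klk1* probe set (0.02) turned without knockout array 1. Without array 1 of both genotypes the signs turned for *Klk1b11* (0.14), *Klk5* (-0.05), *Klk13* (-0.38), *Spink1* (0.13), *Spink5* (1.08), *Wfdc2* (0.10), *Wfdc3* (0.09) and *Wfdc12* (0.22). On array day 1 alone they turned for *Klk1b8* (-0.17), *Klk1b11* (0.47), *Klk1b24* (0.64), *Spink1* (0.03), *Spink5* (1.65), *Spink8* (-0.33), *Spink10* (-0.10), *Wfdc2* (0.52), *Wfdc3* (0.11), *Wfdc12* (0.42) and *Wfdc15b* (-2.60). On array day 2 alone they turned for *Klk5* (-0.10), *Klk13* (-0.07), *Spink12* (-0.39) and *Wfdc1* (-0.07). Array weights turned *Wfdc12* (0.11) and *Wfdc15b* (-0.58). The causes were not tested. The 95% interval reached past a 2-fold change for 17 of 43 members, and 15 of the 43 were near background.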
